A study of Mus musculus with 36 samples.

Results

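The PAX6 ChIP pool 2 list holds 1032 of the 3254 peaks in the 4 peak lists of the series. All its peaks were taken as members, with no limit of their own. The authors had merged 6 PAX6 ChIP libraries and called peaks against 6 input libraries carrying the same pool number. Chromatin came from enteric precursor cells (EPCs) grown as neurosphere-like bodies (NLBs), the cell aggregates that gut-derived neural crest cells form in culture, taken at postnatal day 7 from the ganglionic gut of mice of the CD-1 strain. The culture medium held bFGF, EGF and GDNF, an anti-PAX6 antibody (Millipore) was used for the ChIP, and 10% of each sample was kept as input. The other lists are pool 1 (491 peaks, 4 ChIP libraries), pool 3 (724 peaks, 6 ChIP libraries) and a list of 1007 peaks from 4 libraries made with mouse IgG (Diagenode), which carry the label of pool 1 and serve here as background. As libraries were merged before calling, pool 2 is a single list without a spread between libraries, and its read depth is unknown. The lists hold positions and no expression, so the identity of the cells could not be checked against markers.

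PAX6 is a transcription factor with 2 DNA-binding parts, a paired domain and a homeodomain, and is best known for its role in the eye, the forebrain and the endocrine pancreas. The enteric nervous system is built by neural crest cells that colonise the gut under the control of RET and its ligand GDNF, of the endothelin receptor EDNRB and its ligand EDN3, and of transcription factors such as SOX10. In a ChIP-seq experiment a peak marks a place where fragments pulled down by the antibody outnumber those of the input. Simple repeats, in which a unit of a few bases recurs in tandem, are common in the mouse genome.

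The sequences under the peaks that the results turn on are shown first, read from mm9 on the plus strand, 5′ to 3′. The highest scoring peak of the list lies on chromosome 1, 298 kb from the closest annotated start, and 300 bases of it (chr1:81372033-81372332) are shown with every AAC or GTT stretch of at least 12 bp in capitals. In the next 6 sequences the capitals mark the longest perfect tandem run of the peak. They come from the body of Utrn (chr10:12408648-12408797), from the region 23.9 kb from the start of Gm11029 (chr12:114631141-114631290), from the region 58.3 kb from the start of RP23-76I20.1 (chr16:50841759-50841908), and from the bodies of Smad9 (chr3:54572952-54573101) and Slco1b2 (chr6:141600555-141600704). The last is 28.1 kb from a start of Parp8 (chr13:117842224-117842373). None of these 7 windows lies over a coding exon.
Highest scoring peak: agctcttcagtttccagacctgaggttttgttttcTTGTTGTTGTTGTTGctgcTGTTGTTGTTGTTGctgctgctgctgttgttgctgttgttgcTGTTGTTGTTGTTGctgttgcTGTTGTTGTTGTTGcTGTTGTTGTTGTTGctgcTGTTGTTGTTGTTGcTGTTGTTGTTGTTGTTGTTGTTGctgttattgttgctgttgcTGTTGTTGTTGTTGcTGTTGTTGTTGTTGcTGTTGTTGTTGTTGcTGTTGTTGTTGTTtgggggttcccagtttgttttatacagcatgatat
Utrn: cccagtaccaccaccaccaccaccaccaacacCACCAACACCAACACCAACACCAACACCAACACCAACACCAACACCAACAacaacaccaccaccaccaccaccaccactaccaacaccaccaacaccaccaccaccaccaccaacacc
Gm11029: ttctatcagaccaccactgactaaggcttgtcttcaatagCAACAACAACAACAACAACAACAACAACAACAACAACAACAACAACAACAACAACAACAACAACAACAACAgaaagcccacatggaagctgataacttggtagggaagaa
RP23-76I20.1: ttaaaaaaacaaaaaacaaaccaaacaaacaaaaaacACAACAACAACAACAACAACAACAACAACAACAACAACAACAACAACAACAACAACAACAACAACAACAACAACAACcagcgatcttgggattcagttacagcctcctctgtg
Smad9: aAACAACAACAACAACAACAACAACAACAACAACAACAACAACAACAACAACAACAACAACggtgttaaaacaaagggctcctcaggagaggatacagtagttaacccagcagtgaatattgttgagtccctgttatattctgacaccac
Slco1b2: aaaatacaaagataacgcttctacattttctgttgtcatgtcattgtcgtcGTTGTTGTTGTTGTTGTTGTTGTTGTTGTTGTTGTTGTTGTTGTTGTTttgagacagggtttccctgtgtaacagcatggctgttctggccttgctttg
Parp8: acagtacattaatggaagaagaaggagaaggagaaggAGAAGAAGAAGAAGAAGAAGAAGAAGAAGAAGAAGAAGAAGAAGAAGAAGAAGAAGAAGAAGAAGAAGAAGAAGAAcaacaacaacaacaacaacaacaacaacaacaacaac

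A second set of sequences shows peaks of the other kinds. The first lies 44.7 kb from a start of Edn3, of the endothelin pathway (chr2:174541256-174541405), and its capitals mark the longest perfect run. The peak in the body of Sema3c (chr5:17164230-17164379) is shown with a pair of homeodomain letters in capitals, TAAT and ATTA. The last 3 lie within 105 bp of the starts of Klf6 (chr13:5860530-5860729), Bbs5 (chr2:69485215-69485414) and Mterfd1 (chr13:67033904-67034103), with every CG in capitals.
Edn3: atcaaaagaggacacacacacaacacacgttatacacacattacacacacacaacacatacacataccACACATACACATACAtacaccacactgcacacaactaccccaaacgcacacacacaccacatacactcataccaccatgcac
Sema3c: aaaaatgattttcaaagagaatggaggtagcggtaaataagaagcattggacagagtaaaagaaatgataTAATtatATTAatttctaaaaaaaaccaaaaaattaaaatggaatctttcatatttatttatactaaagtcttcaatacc
Klf6: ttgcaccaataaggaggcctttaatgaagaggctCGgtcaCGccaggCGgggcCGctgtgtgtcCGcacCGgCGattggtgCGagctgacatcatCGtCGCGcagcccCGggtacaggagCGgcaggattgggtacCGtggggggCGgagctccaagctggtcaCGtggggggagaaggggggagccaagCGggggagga
Bbs5: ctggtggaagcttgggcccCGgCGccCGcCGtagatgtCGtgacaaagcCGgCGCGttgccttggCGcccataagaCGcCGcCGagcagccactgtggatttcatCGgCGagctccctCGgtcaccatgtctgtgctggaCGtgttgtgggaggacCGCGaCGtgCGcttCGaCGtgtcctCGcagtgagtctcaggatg
Mterfd1: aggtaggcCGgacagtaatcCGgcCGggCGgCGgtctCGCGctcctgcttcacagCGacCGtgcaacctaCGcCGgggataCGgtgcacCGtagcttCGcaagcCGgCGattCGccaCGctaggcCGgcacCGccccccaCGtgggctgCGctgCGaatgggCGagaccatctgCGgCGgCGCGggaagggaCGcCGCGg

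Each peak carries a score, the authors' deposited value, which is the p-value of the peak caller on a logarithmic scale. Scores of pool 2 ran from 50.16 to 509.09, with a median of 68.98 and quartiles of 63.4 and 84.05. Many peaks shared a score exactly: the 1032 peaks held 510 distinct values, and 247 peaks (23.9%) took one of the 4 commonest. A score of 68.98 was given to 103 peaks, 84.05 to 82, 99.69 to 35 and 68.59 to 27, so that ranks in this middle range are ties. Scores of at least 100 were held by 114 peaks, of at least 150 by 41 and of at least 200 by 24. Peak widths ran from 204 to 2695 bp, with a median of 434.5 bp and quartiles of 360 and 545 bp. The 103 peaks at 68.98 were all between 334 and 399 bp wide.

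Of the 1032 peaks, 1018 lay on chromosomes 1 to 19 and X and could be given a sequence and genes. The other 14 lay on unplaced sequence, 9 of them on pieces of chromosome Y, 4 on pieces of no known chromosome and 1 on a piece of chromosome 8. They scored between 51.11 and 115.84. All shares below are of the 1018 placed peaks, and their 95% Wilson intervals, like the tests between lists, cover counting error over peaks only.

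The placed peaks followed the length of the chromosomes, apart from chromosomes 12 and X. For 18 of 20 chromosomes the share of sequenced bases fell inside the 95% interval of the share of pool 2 peaks. These 20 intervals were not adjusted for their number. Chromosome 12 held 64 peaks where 46.8 were expected from its sequenced bases, 1.37 times as many. Its share of pool 2 peaks had an interval of 4.95 to 7.95% against 4.6% of the sequence. The same ratio was 0.995 in IgG, 0.979 in pool 1 and 0.856 in pool 3. Chromosome X held 28 where 64.6 were expected, or 2.75% of the peaks (1.91 to 3.95%) against 6.34% of the sequence. The low share on chromosome X was also present in the IgG list, with 24 of 1006 peaks (2.39%), and the difference between pool 2 and IgG did not pass the test (Fisher's exact test, two-sided, adjusted over 21 comparisons, adjusted p = 0.833). By the same exact test, pool 1 had 25 of its 489 peaks on chromosome X (5.11%, adjusted p = 0.0574) and pool 3 had 3 of 712 (0.421%, adjusted p = 0.000539), so that the share in pool 2 was above that in pool 3.

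**Figure D1:**
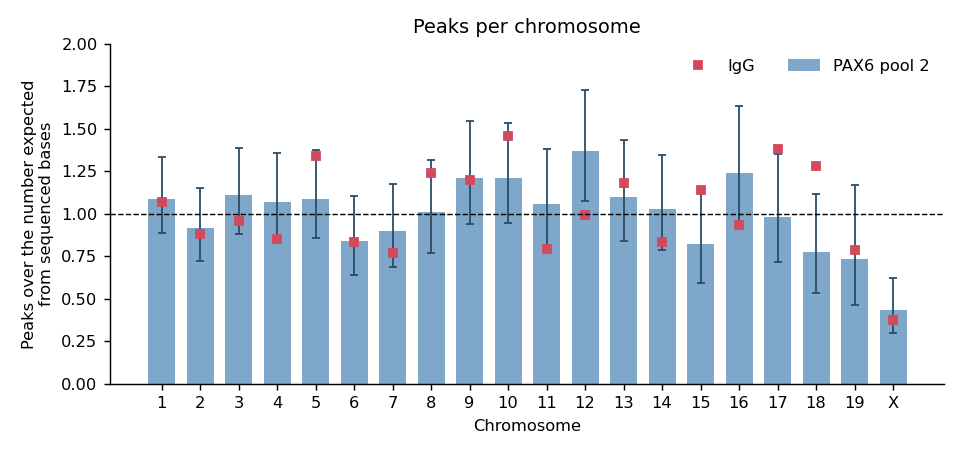
Peaks of pool 2 on each chromosome divided by the number expected from its sequenced bases (bars, with 95% Wilson intervals as error bars) and the same ratio for IgG peaks (squares). The dashed line marks 1. Chromosome X stands at 0.434 in pool 2 and 0.376 in IgG, and chromosome 12 at 1.37 in pool 2 and 0.995 in IgG.

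Most pool 2 peaks lay over a simple repeat. A run was counted where a unit of 1 to 6 bases recurred without a break over at least 20 bp, and each peak was classed by its longest run. CA or TG was the longest run in 503 peaks (49.4%), AAC or GTT in 99 (9.72%), GA or CT in 67 (6.58%), AAG or CTT in 30 (2.95%) and some other unit in 108 (10.6%). The other 211 peaks (20.7%) held no run of 20 bp. Anywhere in the peak, 577 of 1018 held a CA or TG run (56.7%, 53.6 to 59.7%), against 630 of 1006 IgG peaks (62.6%, 59.6 to 65.6%). In the central 400 bp, 54.8% of the peaks held a CA or TG run against 3.91% of all 6388920 clean 400-bp tiles of the genome, 14 times the share.

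CA or TG runs were frequent in the background list too. Their share was 5.94 percentage points lower in pool 2 than in IgG (Fisher's exact test, adjusted p = 0.0198), 7.4 points higher than in pool 1 (adjusted p = 0.021) and within 0.343 points of pool 3 (adjusted p = 0.949). The difference from IgG no longer passed the test when runs of at least 30 bp were required, with 45.4% in pool 2 and 46.4% in IgG. The coverage of these runs stayed low at every length. Pool 2 peaks lay over 0.347% of the genome's CA or TG runs of 20 to 29 bp, 0.291% of those of 30 to 39 bp and 0.295% of those of 40 to 59 bp, with 0.716% (0.468 to 1.09%) of those of 60 bp or more. The IgG peaks lay over 0.647% (0.415 to 1.01%) of these longest ones.

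AAC or GTT runs set pool 2 apart from the other 3 lists. They were present in 119 of 1018 pool 2 peaks (11.7%, 9.86 to 13.8%), in 4 of 1006 IgG peaks (0.398%, 0.155 to 1.02%), in 7 of 489 pool 1 peaks (1.43%, 0.695 to 2.93%) and in 3 of 712 pool 3 peaks (0.421%, 0.143 to 1.23%). The odds ratio was 33.2 against IgG (Fisher's exact test, adjusted p = 1.5e-30), 9.11 against pool 1 (adjusted p = 3.33e-13) and 31.3 against pool 3 (adjusted p = 7.73e-24). In the central 400 bp 11.7% of pool 2 peaks held such a run against 0.239% of the tiles of the genome, 49 times the share. This class was noticed in the data and then tested in the same lists, and one list per pool gives no spread between libraries. With IgG from pool 1 only, antibody and pool change together in the comparison with IgG.

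**Figure D2:**
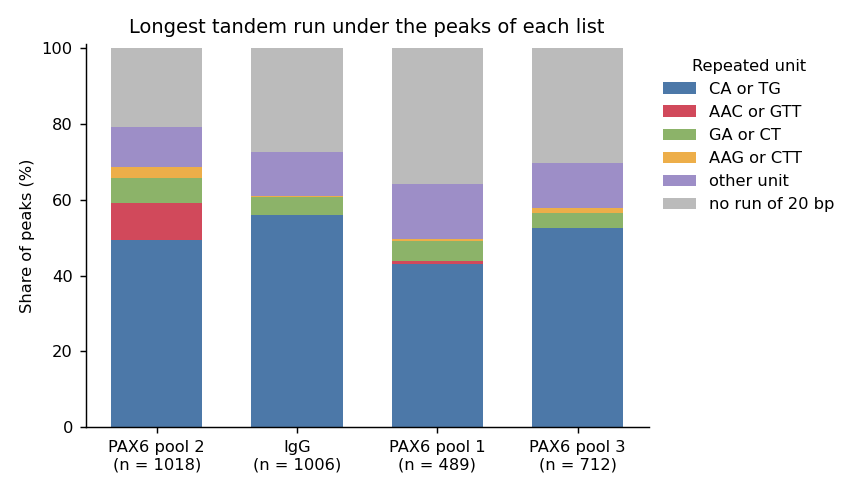
Share of the placed peaks of each list by the unit of their longest tandem run, in percent. AAC or GTT is the longest run in 9.72% of pool 2 peaks, in 0.0994% of IgG peaks, in 0.613% of pool 1 peaks and in none of pool 3, while CA or TG takes 43.1 to 55.9% in all 4 lists.

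The longer an AAC or GTT run was, the more often a pool 2 peak lay over it. Of the 12156 runs of 20 to 29 bp in the placed genome, 42 lay under a pool 2 peak (0.346%, 0.256 to 0.467%). Of 2447 runs of 30 to 39 bp it was 21 (0.858%, 0.562 to 1.31%), and of 1255 runs of 40 to 59 bp it was 73 (5.82%, 4.65 to 7.25%). The genome holds 11 perfect AAC or GTT runs of 60 bp or more, and all 11 lay under a pool 2 peak (100%, 74.1 to 100%). Pool 1 peaks lay over 1 of these 11, the run in Smad9, while IgG and pool 3 peaks lay over 0 of 11, which allows a share of up to 27.3% (3 counts of the total). In the class of 40 to 59 bp IgG peaks lay over 2 runs (0.159%), pool 1 peaks over 1 and pool 3 peaks over 1.

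The 11 longest runs were between 60 and 77 bp and their peaks scored between 99.69 and 336.57. The run of 77 bp, near RP23-76I20.1, had a score of 318.04, the run of 72 bp, 21 kb from n-R5s155, had 316.75, and the run of 71 bp, near Gm11029, had 336.57. Only the run of 60 bp in Smad9, which codes for a receptor-regulated SMAD of BMP signalling, lay in the body of a protein-coding gene (score 177.55). The other 10 lay outside the bodies of protein-coding genes.

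**Figure D3:**
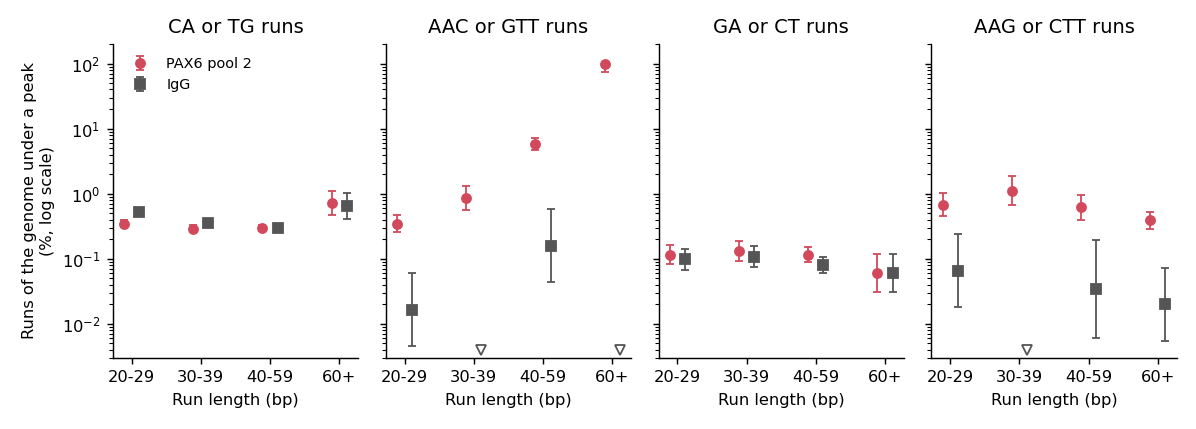
Share of all perfect runs on chromosomes 1 to 19 and X that lie under a peak, in percent on a log axis, by repeated unit and run length in bp. Circles are pool 2 and squares IgG, error bars are 95% Wilson intervals, and open triangles mark 0 runs under a peak. For AAC or GTT the pool 2 share rises from 0.346% at 20 to 29 bp to 100% at 60 bp or more, while for CA or TG it stays between 0.291 and 0.716%.

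AAG or CTT runs, another trinucleotide, were found in 39 of 1018 pool 2 peaks, 4 of 1006 IgG peaks, 3 of 489 pool 1 peaks and 10 of 712 pool 3 peaks. These shares were not compared by a test. Pool 2 peaks lay over 92 of the 17375 AAG or CTT runs of the genome (0.529%, 0.432 to 0.649%) and IgG peaks over 5 (0.0288%, 0.0123 to 0.0674%). Length did not order them as it did AAC: 0.68% of runs of 20 to 29 bp lay under a pool 2 peak and 0.387% of those of 60 bp or more. GA or CT runs, found in 113 pool 2 peaks and 94 IgG peaks, were near the background at every length. Pool 2 peaks lay over 0.113% of them (0.0956 to 0.134%) and IgG peaks over 0.0881% (0.0729 to 0.107%).

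The AAC or GTT peaks held the top of the score ranking. With ties broken by position, AAC or GTT was the longest run in 15 of the 20 highest scoring peaks, 38 of the top 50, 55 of the top 100 and 65 of the top 200. An AAC or GTT run of at least 20 bp was present anywhere in the peak in 18 of the top 20. Among the 24 peaks scoring at least 200, 22 held one and the other 2 held a CA or TG run. The 119 peaks with such a run had a median score of 115.84 (quartiles 83.6 and 167) and the 899 without had 68.73 (quartiles 62.7 and 82.5). Score rose with the length of the run, from a median of 84.05 in 17 peaks whose longest AAC or GTT run was 20 to 29 bp, to 103.59 in 18 peaks at 30 to 39 bp, 117.325 in 74 peaks at 40 to 59 bp and 235.14 in 10 peaks at 60 bp or more. For CA or TG runs of the same lengths the medians were 68.24, 68.98, 68.98 and 72.11.

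**Figure D4:**
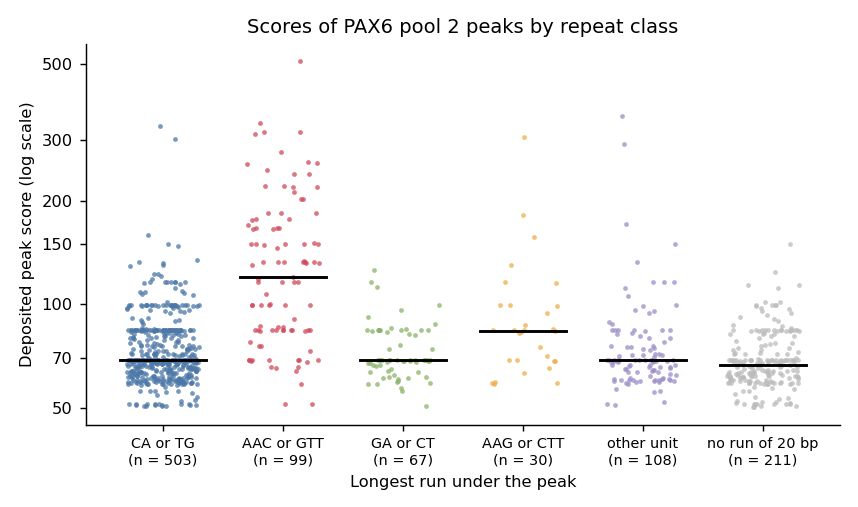
Deposited scores of the 1018 placed pool 2 peaks on a log axis, by the unit of the longest run, one point per peak, with a black line at the median. The median is 120.02 for AAC or GTT, 83.82 for AAG or CTT, between 68.67 and 68.98 for CA or TG, GA or CT and other units, and 66.64 for peaks with no run of 20 bp. The horizontal bands of points are tied scores.

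Shape and position differed as well. The 99 AAC or GTT peaks were narrow and uniform, with a median width of 358 bp (quartiles 350.5 and 377.5), against 438 bp (366.5 and 545.5) for CA or TG peaks. The middle of the AAC or GTT run lay a median of 14.5 bp from the centre of the peak, and in 86 of 119 peaks (72.3%) within 50 bp. The middle of CA or TG runs lay a median of 68 bp from the centre, with 39.7% within 50 bp, and in IgG peaks the same values were 70 bp and 37.9%. The 99 peaks were spread over all chromosomes but 17, with 11 on chromosome 1, 4 on chromosome X and 2 to 8 on the others. In a protein-coding gene body lay 31.3% of them (23 to 41%), against 36% of the CA or TG peaks (31.9 to 40.3%).

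Of the 10 highest scoring peaks, 3 lay in the body of a protein-coding gene, among them Utrn and Gm11161. Over all placed pool 2 peaks that share was 35%, and for evenly placed positions it was 39%. The first peak of the list (509.09) is made of many short AAC or GTT stretches, as its sequence shows. They take 163 of the 300 bases printed, and its longest perfect run was 23 bp. The peak in Utrn, which codes for utrophin, the widely expressed relative of dystrophin, scored 352.61 over a run of the 6-base unit AACACC of 50 bp. The peak of Gm11161 (312.92) lay 54 bp from its start, and the peak of Parp8, an ADP-ribosyltransferase, scored 306.97 and held an AAG run of 76 bp and an AAC run of 40 bp. Ranks 11 to 20 were AAC or GTT peaks without exception, the closest to a protein-coding start being that of Ccdc85a at 2.21 kb (221.04).

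Further down the ranking, some AAC or GTT peaks lay in or near genes of known function. Slco1b2, a liver organic anion transporter, had one 153 bp from a start (184.61), Rasgef1a, an exchange factor for RAS-family proteins, had one in its body (202.68), and Cdhr1, a photoreceptor cadherin, had one at 4.94 kb (177.55). One of 84.05 lay 16.1 kb from Gabrb1 and 25.5 kb from Gabra4, GABA receptor subunits. Dhh, the hedgehog ligand made by Schwann cells, had one at 58.5 kb (132.45), which lay 3.44 kb from Tuba1a, an alpha-tubulin gene. Pde4d, a cAMP phosphodiesterase, held one 3.11 kb from a start (99.69).

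Among the peaks without a run of 20 bp, 2 kinds could be described, and most of the 211 belonged to neither. Some were broken repeats. In 47 of 211 (22.3%, 17.2 to 28.4%) a stretch of 50 bp existed in which at least 40 bases recurred 2 bases further on, against 50 of 276 in IgG (18.1%, 14 to 23.1%). The same share was 9.71% in pool 1 and 27.8% in pool 3, so it was not particular to pool 2. The peak near Edn3, printed above, is rich in such broken CA stretches. The peak near Bmpr1a, a BMP receptor, had the highest score of all 211 (149.47) and lies in the body of Ldb3, a muscle protein of the Z disc.

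The other kind lay at gene starts. Of the 211 peaks without a run, 26 lay within 1 kb of an annotated start (12.3%, 8.55 to 17.4%), against 18 of 807 peaks with a run (2.23%, 1.42 to 3.5%). Over all 1018 placed peaks the share was 4.32% (44 peaks, 3.24 to 5.75%), close to the 4.11% that an even placement on the same chromosomes would give, while in IgG it was 1.99% (20 of 1006, 1.29 to 3.05%). This difference between the lists passed the test (Fisher's exact test, adjusted p = 0.00891), with a limit of 1 kb chosen after seeing the data. The 12.3% depends on the length at which a run was counted. It was 23.2% with runs of 14 bp or more and 9.09% with runs of 30 bp or more. In IgG 6 of 276 peaks without a run lay within 1 kb of a start (2.17%, 1 to 4.66%), in pool 1 it was 1 of 175 (0.571%) and in pool 3 it was 10 of 216 (4.63%, 2.53 to 8.31%). The share in pool 2 was above all of these by Fisher's exact test, with adjusted p = 5.37e-08 against pool 2 peaks with a run, 1.2e-05 against IgG, 2.2e-06 against pool 1 and 0.00495 against pool 3 over these 4 comparisons.

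These start-site peaks were GC-rich. The 26 had a median GC content of 65.4% and a median of 33 CG dinucleotides each, and the 185 peaks without a run farther from a start had 41.8% and 2. A GC content of at least 60% was reached by 35 pool 2 peaks (3.44%), by 0 of 1006 IgG peaks, which allows a share of up to 0.298% (3 counts of the total), by 2 of 489 pool 1 peaks (0.409%) and by 13 of 712 pool 3 peaks (1.83%). The difference passed the test against IgG (Fisher's exact test, adjusted p = 2.32e-10) and pool 1 (adjusted p = 0.000489) and not against pool 3 (adjusted p = 0.1). Among peaks scoring 70 or more the share was 1.8% in pool 2 and 0% in IgG, which no longer passed (Fisher's exact test, adjusted p = 0.0646). Of the 35, 21 lay within 1 kb of a start and 33 held no run. In the central 400 bp the limit was reached by 3.63% of pool 2 peaks and by 0.811% of genome tiles, 4.48 times the share.

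**Figure D5:**
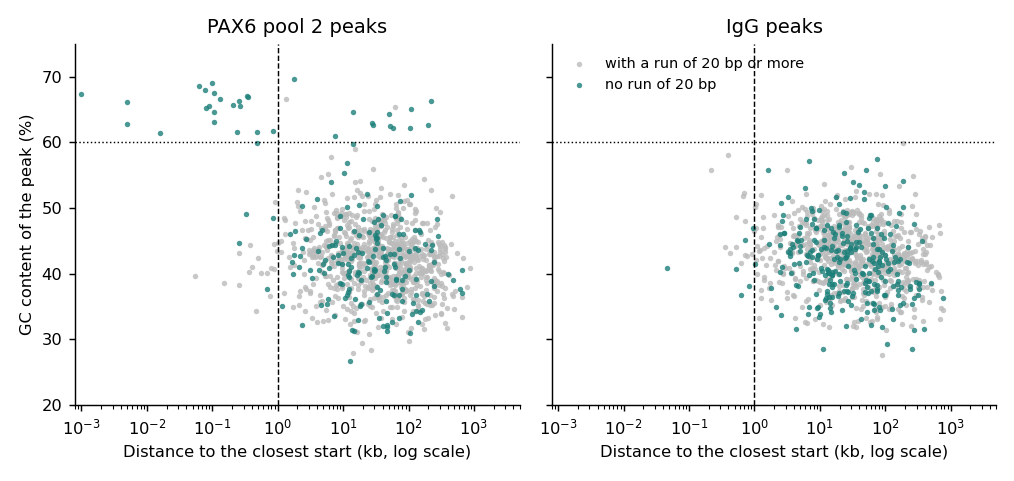
GC content of each peak in percent against the distance from its centre to the closest annotated start in kb on a log axis, for pool 2 (left) and IgG (right). Dark points hold no run of 20 bp, grey points do, and the lines mark 1 kb and 60%. The group of 21 points at the upper left is seen in pool 2, and IgG has 0 peaks at 60% or above.

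The scores of the start-site peaks were low, from 56.82 to 99.69 with a median of 67.36, and 23 of the 26 lay within 1 kb of a protein-coding start. The highest belonged to Sec31a, a coat protein of vesicles leaving the endoplasmic reticulum, with a peak 209 bp from its start (99.69). Hbxip, a subunit of the Ragulator complex, followed at 237 bp (90.89), and Ccdc79, a meiotic telomere protein, and Morn1 scored 84.05 each at 16 and 90 bp. The peak of Klf6, a zinc finger transcription factor, lay 105 bp from a start (80.64, 442 bp wide, 38 CG). Further peaks at starts belonged to Pdia5, a disulfide isomerase (350 bp, 69.05), to Pi4k2a, a phosphatidylinositol kinase (76 bp, 68.98), to Trib2, a pseudokinase (851 bp, 68.09), and to Bbs5, a subunit of the ciliary BBSome (5 bp, 66.87).

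Lower in the list the same position was held by Smek1, a regulatory subunit of protein phosphatase 4 (106 bp, 63.03), Afap1, an actin-binding adaptor (62 bp, 62.63), Gcc1, a Golgi protein whose start region it shares with Arf5 (100 bp, 62.24), Tpst2, a sulfotransferase of the Golgi (264 bp, 62.01) and Tax1bp3, a PDZ protein (5 bp, 61.58). The peak of Mterfd1, a mitochondrial transcription factor family member, had its centre 1 bp from the start (61.86, 58 CG in 531 bp). That centre lies in the annotated bodies of both Mterfd1 and Ptdss1, a phosphatidylserine synthase. Marcks, a membrane-bound actin regulator, had a peak of 69.7% GC over its coding exon at 1.75 kb (59.07). None of these genes is in the enteric or PAX6 gene lists described next. Grin2b, the NMDA receptor subunit, had a peak 552 bp from a start (99.69), over a CA or TG run of 44 bp.

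Against all genes, the shares of pool 2 peaks within 10 kb of a start, in gene bodies and over coding exons did not differ from those of IgG by the test. A start lay within 10 kb of 242 peaks (23.8%, 21.3 to 26.5%), of 229 IgG peaks (22.8%, 20.3 to 25.5%) and of 27.2% of evenly placed positions. The body of a protein-coding gene held 356 peaks (35%, 32.1 to 38%), 375 IgG peaks (37.3%) and 39% of evenly placed positions. A coding exon was touched by 23 peaks (2.26%, 1.51 to 3.37%), by 20 IgG peaks (1.99%) and by 4.6% of evenly placed stretches of the same widths. None of the 9 comparisons of these shares with IgG, pool 1 and pool 3 passed the test, with adjusted p from 0.0623 to 0.949 (Fisher's exact test). The distance from peak to closest start had a median of 32.6 kb in pool 2 and 30.1 kb in IgG.

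Of the 22350 protein-coding genes, 1587 had a pool 2 peak within 100 kb of a start, or 7.1%, against 1712 with an IgG peak, or 7.66%, and 1840 expected from even placement. A pool 2 peak lay in the body of 341 genes, or 1.53%, an IgG peak in 357, or 1.6%, and 384 were expected. The 341 genes were long, with a median of 156 kb against 15.4 kb for all protein-coding genes. Counts in the gene lists below are read against these shares and against the number even placement would give for the same genes.

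Genes of the endothelin pathway, in which EDN3 and EDNRB steer enteric precursors, had 3 of 7 members within 100 kb of a pool 2 peak, against 0.602 expected. An IgG peak lay near 0 of the 7, a pool 1 peak near 1 and a pool 3 peak near 3, so the count was not particular to pool 2. Ednrb, the receptor, had 2 peaks, one in its body 13.5 kb from a start (99.69, a CA run of 46 bp) and one 13.3 kb from a start outside it (67.28, a CA or TG run of 22 bp). Edn3, its ligand, had the peak at 44.7 kb (72.63), and Edn2, another endothelin, one at 69.3 kb (50.91). The RET receptor, its GDNF-family ligands, co-receptors and adaptors had 0 of 16, against 1.24 expected and 1 with an IgG peak. Of 16 enteric neural crest transcription factors found in the annotation, 1 had a peak, Pax6 itself, at 27.6 kb with a score of 50.78 near the lower end of the list (expected 1.27, IgG 1). Its peak held a CA or TG run of 53 bp.

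Among the hedgehog genes 3 of 14 had a peak within 100 kb (expected 1.25, IgG 1): Dhh, the receptor Ptch1 at 17.2 kb (65.19) and the transcription factor Gli2, with one in its body (63.17) and one 60.3 kb away (65.4). BMP, TGF-beta and SMAD genes had 4 of 25 (expected 2.31, IgG 1). Pool 1 had 2 and pool 3 had 3 of these 25, and both had 0 of the hedgehog genes. Smad9 (177.55) and Bmpr1a (149.47) were named above. The BMP antagonist Nog had a peak at 41.3 kb over a CA or TG run of 55 bp (148.03), and Tgfb3, a ligand, one at 74.2 kb (61.63). Notch genes had 0 of 16 (expected 1.53, IgG 1), and neuregulins, EGF ligands and ERBB receptors 0 of 14 (expected 1.34, IgG 3).

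Guidance genes gave 3 of 14 for class 3 semaphorins, neuropilins and plexins (expected 1.28, IgG 0), 4 of 22 for ephrins and Eph receptors (expected 1.98, IgG 1) and 0 of 17 for netrins, slits and their receptors (expected 2.12, IgG 3). In pool 1 these counts were 0, 1 and 0, and in pool 3 they were 2, 3 and 1. Sema3c, a secreted guidance cue, had a peak in its body (81.78) and Sema3a, another, one at 67.3 kb (71.68). Plxna2, a semaphorin receptor, had 2 peaks, of 67.93 and 60.63. Robo1 and Robo2, slit receptors, held one each in their bodies, far from a start at 202 and 132 kb (63.88 and 51.38). Epha6 had 2 peaks (68.98 and 59.54), Epha2 one at 85.4 kb (71.54), and Ephb2 and Epha8 shared one (84.05).

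Glutamate and GABA receptor subunits had 8 of 46 members within 100 kb of a peak (expected 4.71, IgG 3) and 7 with a peak in the body (expected 4.27, IgG 8). Grin2a, an NMDA receptor subunit, held 2 peaks, of 115.84 and 84.05, both over CA or TG runs. Grid1, Grik2, Grm3 and Grm4 held one each, from 58.44 to 84.05. Potassium channel subunits had 9 of 88 within 100 kb (expected 8.1, IgG 19) and 8 in the body (expected 3.72, IgG 7), led by Kcnk2, a background potassium channel, at 111.26. The peak counted for Kcna10 is the one at the start of Hbxip. Kcnip3, a channel-interacting calcium sensor, held 2 peaks in 65.6 kb (71.68 and 64.24). Sodium and calcium channel genes had 0 of 44 within 100 kb (expected 4.39, IgG 3), and Ryr2, the calcium release channel, held one in its body (83.59).

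Adhesion genes followed no single pattern. Neurexins, neuroligins, neurexophilins and contactins had 3 of 23 within 100 kb (expected 2.81, IgG 2), cadherins and protocadherins 1 of 34 (expected 3.41, IgG 3), and the dystrophin and utrophin complex 2 of 18 (expected 2.41, IgG 2). Collagen IV and laminin chains, the basement membrane components, had 5 of 19 (expected 1.95, IgG 1). Pool 1 had 2 and pool 3 had 5, so this count was not particular to pool 2. A peak of 77.71 in the body of Col4a2 counted for Col4a1 as well, and Lama1 (58.44), Lama3 (55.36) and Lamb3 (64.18) had one each. Phosphodiesterases, adenylate cyclases and diacylglycerol kinases had 6 of 41 (expected 4.7, IgG 4), with Dgki at 157.22 over an AAG or CTT run of 248 bp and Pde1a at 120.02. Pool 1 had 2 and pool 3 had 6 of these 41.

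PAX6 and its known eye, brain and endocrine targets had 4 of 33 genes within 100 kb (expected 2.81, IgG 4), at scores of 50.78 to 66.75. They were Pax6, the lens crystallin genes Cryaa (71 kb) and Crybb1 (20.6 kb, a peak at the start of Tpst2) and Olfm3 (98.3 kb), and Pcsk2, a prohormone convertase, held one in its body (58.31). Enteric neuron markers had 5 of 24 (expected 2.1, IgG 1). They were Prph, a neuronal intermediate filament, at 98.2 kb from the peak of Dhh, Tubb3, the neuronal tubulin, at 53.2 kb (115.84), Syt1, a synaptic vesicle calcium sensor, at 82.4 kb in its body (108.26), Stmn2 at 55.2 kb (68.98) and Penk at 89.4 kb (63.57). Enteric glia and precursor markers had 1 of 12, Gfap at 72.3 kb (75.54, expected 0.891). Markers of muscle, fibroblasts and interstitial cells had 0 of 16 (expected 1.38, IgG 2), and epithelial, endothelial and immune markers 1 of 15, Itgam at 842 bp (67.78, expected 1.28). Membership says where a peak lies and not whether the gene is active.

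Of the 19 target genes that the study chose on these samples, 17 were found among the protein-coding genes of the annotation. Of these, 13 had a pool 2 peak within 100 kb of a start and 9 in the body. Speer5-ps1, annotated but not as protein-coding and so not counted, had one at 39.2 kb (84.05, a CA or TG run of 46 bp). These genes were picked from the same peaks, so the count is not independent evidence. By sequence those named here were a mixed set: Smad9 lay over AAC, Col4a2, Nxph1 and Atxn1 over CA or TG, Mcc, Dgki and Il10ra over AAG or CTT, Abi3bp over another unit, and the peaks near Arl15, Gng4, Edn3, and Acadm with Rabggtb over no run of 20 bp. Kcnq1 had 2 peaks, of 68.98 over CA or TG and of 60.99 without a run. The lowest score among them was 60.01, for Gng4.

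Several genes held more than one pool 2 peak in their body. There were 21, against 19.6 expected from even placement and 23 in IgG. Pcdh15, a cadherin of hair cell and photoreceptor links, held 4 in 1550 kb, scoring 51.14, 65.74, 83.71 and 132.45, where 0.746 were expected. Dnahc8, an axonemal dynein heavy chain, held 4 in 251 kb, scoring 59.92, 60.27, 64.39 and 99.69, where 0.0983 were expected, though the middle pair lie side by side. IgG had 1 peak in each of these genes and no more than 3 in any gene. The 19 others held 2 each, among them Utrn, Fhit, Sdk2, Grin2a, Camta1, Pde4d, Kcnip3 and Kcnq1. The peaks of Utrn scored 352.61 and 65.39, and the second held an AAC or GTT run of 55 bp and touched a coding exon.

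Letters of the known PAX6 binding modes were as rare under the peaks as in the genome, within counting error. TTCACGC, a core of the paired domain site, was searched on both strands in the central 400 bp and found in 7 of 1018 peaks (0.688%, 0.333 to 1.41%), against 0.636% of the tiles and 8 of 1006 IgG peaks. A homeodomain pair, TAAT followed 3 bases on by ATTA, reads the same on both strands and was found in 10 peaks (0.982%, 0.534 to 1.8%), against 1.39% of the tiles and 5 IgG peaks. Windows can reach past a narrow peak. Counted within the peaks themselves, the first stood in 5 peaks, among them one in the body of Pde2a (84.05), and the second in 10, among them those of Sema3c, Robo1 and Gabrb1.

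Few pool 2 peaks were seen again. How many overlaps even placement would give was not computed, so these counts are not set against a chance level. An IgG peak overlapped 17 of the 1032 (1.65%, 1.03 to 2.62%), 13 of them over CA or TG and none over AAC or GTT. A pool 1 peak overlapped 5 (0.484%, or 1.02% of pool 1) and a pool 3 peak 17 (1.65%, or 2.35% of pool 3), together 22 (2.13%, 1.41 to 3.21%). The only AAC or GTT peak among these 22 was that of Smad9. The peaks in Stau2, an RNA-binding protein (111.2), and near Ocm, the calcium-binding oncomodulin (91.57), overlapped a pool 3 peak and an IgG peak alike. The peak near Edn3 overlapped a pool 3 peak by 100 bp.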

How the data were processed

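ChIP-seq was made from chromatin of cultured enteric precursor cells. The authors aligned MiSeq reads to mm9 with Bowtie, merged the libraries of a pool and called peaks with MACS, whose versions are not given in the sources used here. Every deposited list holds positions and a score, the authors' p-value on a logarithmic scale, but no reads, so depth is unknown. The IgG, pool 1 and pool 3 lists served as comparisons.

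Peaks were placed on GENCODE M1 (37252 genes, 22350 of them protein-coding on chromosomes 1 to 19 and X). A run was a perfect tandem repeat of a unit of 1 to 6 bases over at least 20 bp, and a peak was classed by its longest run. Even placement was computed from sequenced bases, from all 400-bp tiles and from gene lengths, and carries no p-value. Shares of peaks were compared by Fisher's exact test, two-sided, with peaks as units and Benjamini-Hochberg adjustment over 21 comparisons (4 for starts), of which 8 of the 21 passed 0.05. These tests and the 95% Wilson intervals cover counting error only, not the spread between libraries. Scripts were tested on simulated data.

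The members, gene lists and tests were chosen with earlier results of these data known. The AAC or GTT share, the 60% GC limit and the comparison at starts were added after the data were seen. Named genes were those around the 20 highest scores, list genes with a peak within 100 kb of a start or in the body, genes with a start within 1 kb of a peak, genes with most peaks in the body, and genes around peaks shared with another list. Others were named after their values were seen, and some genes and sequences that meet the rule are not reported here. Python 3.11.15, numpy 2.4.6, pandas 2.3.3, scipy 1.17.1 and matplotlib 3.10.9 were used.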

Additional observations from a re-analysis of the deposited data

Results flagged for a closer look

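In 5 comparisons the share of pool 2 peaks differed from that of another PAX6 pool by Fisher's exact test, with peaks as units. Against pool 1, the share with a CA or TG run was 7.4 percentage points higher, the share with an AAC or GTT run 10.3 points higher and the share with a GC content of at least 60% 3.03 points higher. Against pool 3, the share with an AAC or GTT run was 11.3 points higher and the share on chromosome X 2.33 points higher. Each pool is one list called on merged libraries, so a difference between pools cannot be told apart from a difference between their sequencing, input or peak calling.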

How the results depend on the processing

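The AAC or GTT share stayed above that of IgG and passed Fisher's exact test under each of the alternatives tried, all added after seeing the data. Limits on the score left 450 peaks at 70 and 114 at 100. The share within 10 kb of a start, 1.01 points higher than in IgG, turned to -1.05 at 20 kb, and the share in gene bodies, -2.31 points, turned to 1.81 at a score of 70 or more, none of which passed the test. At 1 kb, a limit added after seeing the data, the difference at starts was 2.33 points and passed (Fisher's exact test, adjusted p = 0.00891). The CA or TG difference of -5.94 points fell short of the test with runs of at least 30 bp (-1.04, Fisher's exact test, adjusted p = 0.786) and in the central 200 bp (-4.26, adjusted p = 0.101). The GC difference of 3.44 points was 1.8 at a score of 70 or more (Fisher's exact test, adjusted p = 0.0646), an alternative added after seeing the data. Overlap with pool 1 or 3 was 1.26% when 50% of both peaks had to be shared. Genes near a peak numbered 839 within 50 kb, 341 by gene body and 718 at a score of 70 or more. Peaks without a run lay within 1 kb of a start in 23.2% when runs of 14 bp counted, also added after seeing the data. The cause of these changes was not tested, beyond the fewer peaks or shorter reach that each sets. The other 28 values kept their direction and their side of the threshold, or moved by less than their counting error or 1.5 times. No paired analysis was possible because the libraries of each pool had been merged into 1 list.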
